A study of Mus musculus with 12 samples.

Results

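The enzymes that write and remove cytosine methylation were followed at the RNA level in KB5 CD8 T cells. The 7 genes were chosen by name, as the rows of the deposited gene table with the symbols Dnmt1, Dnmt3a, Dnmt3b, Uhrf1, Tet1, Tet2 and Tet3. All 7 of the 7 were present among 16353 listed genes, and all 7 passed the filter on low values that left 12499 genes for testing. The choice was by symbol, though earlier results of these data were known when it was made. KB5 T cells carry 1 transgenic T cell receptor that recognises an antigen of C57BL/6 cells. They were obtained from the spleen of CBA/J mice by sorting on that receptor and on CD8, to 95% purity by the labels. Naive cells were labelled as untreated. Activated cells came from mice given 10000000 C57BL/6 splenocytes into a vein, a donor-specific transfusion. In tolerized cells the mice had received this transfusion and 0.5 mg of anti-CD154 into the peritoneum, an antibody that blocks the CD40 ligand and so withholds costimulation. Inflamed cells had both of these and also 100 µg of LPS (lipopolysaccharide) into the peritoneum, a component of bacterial outer membranes that sets off innate immune signalling. Spleens of treated mice were taken 12 h after treatment. Every group had 3 libraries, so the antigen was present in all 3 treated groups and no group received LPS or anti-CD154 without it. The sources used here give no age of the mice, and they call the libraries independent without saying that each came from its own mouse. The p-values therefore measure only the spread between these libraries.

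Cytosines in DNA are methylated mostly where a C is followed by a G (CpG). DNMT3A and DNMT3B place methyl groups on unmethylated DNA, while DNMT1 copies the pattern onto the new strand after replication, led by UHRF1 to sites that are methylated on the old strand alone. The TET proteins oxidise the methyl group, and the oxidised base is then lost by dilution in dividing cells or cut out by the glycosylase TDG and replaced by base excision repair. In T cells DNMT3A is known for silencing genes of alternative fates after activation, and TET2 loss is known to shift CD8 T cells towards memory. RNA levels were measured here, and DNA methylation and enzyme activity were not.

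Levels are given as CPM (read counts scaled to a library of 1 M, mega, reads) after scaling by trimmed mean of M values (TMM), for libraries 1, 2 and 3 in that order, and differences as log2 values ± SE from 3 libraries a group on the log2(CPM + 1) scale, which understates the change of low genes. A gene was called at a Benjamini-Hochberg adjusted p under 0.05 from limma over 12499 genes. Library totals ran from 29335723 to 84533097 reads. Libraries stood apart within groups: activated 3, tolerized 3 and inflamed 2 held the most RNA of Il7r in their groups, the gene of the IL-7 receptor of resting T cells (87.9, 21.8 and 44.4 CPM). The summed level of 9 macrophage and monocyte markers was 605 to 1508 CPM in naive libraries, 44.6 to 601 CPM in activated, 37.4 to 114 CPM in tolerized and 8.0 to 387 CPM in inflamed libraries, with none of the 9 at 0 in any library. B cell markers summed to 307 to 394 CPM in naive and 71.8 to 154 CPM in exposed libraries, erythroid markers to 495 to 1190 CPM and 10.1 to 152 CPM, and neutrophil markers reached 181 CPM in inflamed 1 and at most 13.6 CPM in the naive, activated and tolerized libraries. CD8 T cell markers summed to 4332 to 5373 CPM in naive and 2112 to 3453 CPM in the other 9 libraries, and all 7 were detected in each. The part of these other cells in the results below was not tested, and in such bulk libraries fewer cells of a type and less RNA per cell cannot be told apart.

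Promoter sequence was examined because Uhrf1, described below, differed between libraries together with genes of DNA replication. RefSeq promoter windows of GRCm38.p6, covering 250 bases before each annotated start, were searched on both strands for a motif of 8 letters of the kind bound by E2F factors, which control S phase genes, in 4 versions (TTTCCCGC, TTTCGCGC, TTTGCCGC and TTTGGCGC). Of the 7 genes, Uhrf1 and Dnmt1 held a match in 1 window each, and no match was present in the windows of Dnmt3a, Dnmt3b, Tet1, Tet2 and Tet3. The 2 sites are shown with 11 bases on each side, read along the gene's strand, with the motif in capitals.
Uhrf1: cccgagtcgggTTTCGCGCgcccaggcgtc
Dnmt1: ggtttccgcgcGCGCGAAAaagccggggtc
Both were the same version of the motif, TTTCGCGC, in opposite directions. They began 185 bases before the downstream one of 2 annotated starts of Uhrf1 and 219 bases before the most downstream of 3 annotated starts of Dnmt1. Any of the 4 versions was present in 1.86% of 32851 windows, and the version shared by these genes in 0.256% (84 windows). Counted by gene, with all its windows, 2.16% of 27025 genes held any version. All 4 versions contain CpG, and neither their share nor that of the shared version was counted among windows as rich in CpG as these. A match is a string of letters, not a measured binding site.

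The whole Uhrf1 window (chr17:56304063-56304312, plus strand) is printed because it carries the match, again in capitals. The first Dnmt3a window (chr12:3806730-3806979, plus strand) is printed beside it because Dnmt3a also rose with antigen and its window held no match.
Uhrf1: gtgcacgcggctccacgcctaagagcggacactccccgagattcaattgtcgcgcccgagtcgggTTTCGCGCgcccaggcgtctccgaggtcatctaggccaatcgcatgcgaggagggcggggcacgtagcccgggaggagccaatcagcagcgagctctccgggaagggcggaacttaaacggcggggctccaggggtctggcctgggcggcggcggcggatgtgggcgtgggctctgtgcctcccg
Dnmt3a: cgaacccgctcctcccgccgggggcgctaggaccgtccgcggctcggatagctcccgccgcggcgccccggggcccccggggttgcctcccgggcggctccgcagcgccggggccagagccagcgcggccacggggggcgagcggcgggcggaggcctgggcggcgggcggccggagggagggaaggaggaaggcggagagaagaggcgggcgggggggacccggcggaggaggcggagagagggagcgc
The Uhrf1 window held 30 CpG and the Dnmt3a window 38, against a median of 6 over all windows. For the other genes the window with the most CpG held 26 for Dnmt1, 21 for Dnmt3b, 15 for Tet1, 51 for Tet2 and 17 for Tet3. These counts lay above the 75th percentile of all windows (16) for each gene but Tet1, and in the Tet2 window the count was above that of 99.9% of windows. Other windows of the same genes held 7 and 2 CpG for Dnmt1, 10 for Uhrf1 and 40 and 15 for Dnmt3a.

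After antigen the genes for new methylation rose (Dnmt3a and Dnmt3b), as did the guide of maintenance methylation (Uhrf1), Dnmt1 differed by at most 0.29 in log2 level, and the lowest TET gene (Tet1) fell. Against naive cells, 3 of the 7 genes rose in activated cells (Dnmt3a, Dnmt3b and Uhrf1), 4 in tolerized cells (these and Dnmt1) and 3 in inflamed cells (Dnmt3a, Dnmt3b and Uhrf1). Tet1 fell in each of the 3 groups and was the 1 gene of the 7 to do so. Large parts of the transcriptome were called as well: 35.3% of tested genes were higher and 35.3% lower in activated than in naive cells, 37.4% and 35.9% in tolerized, and 36.9% and 35.5% in inflamed cells. Counts of 3 or 4 of 7 lie near these shares, and 1 of 7 lies below them, so the counts alone set these genes apart from no others. Where exposed libraries are described as not overlapping naive ones, the share over all tested genes was not counted. The 3 comparisons share the naive libraries. With library size alone in place of TMM, the share of higher genes among those called in them was 39.1%, 39.6% and 38.6%, against 50.0%, 51.0% and 51.0%, and upper-quartile scaling gave 41.1%, 41.8% and 42.5%.

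**Figure D1:**
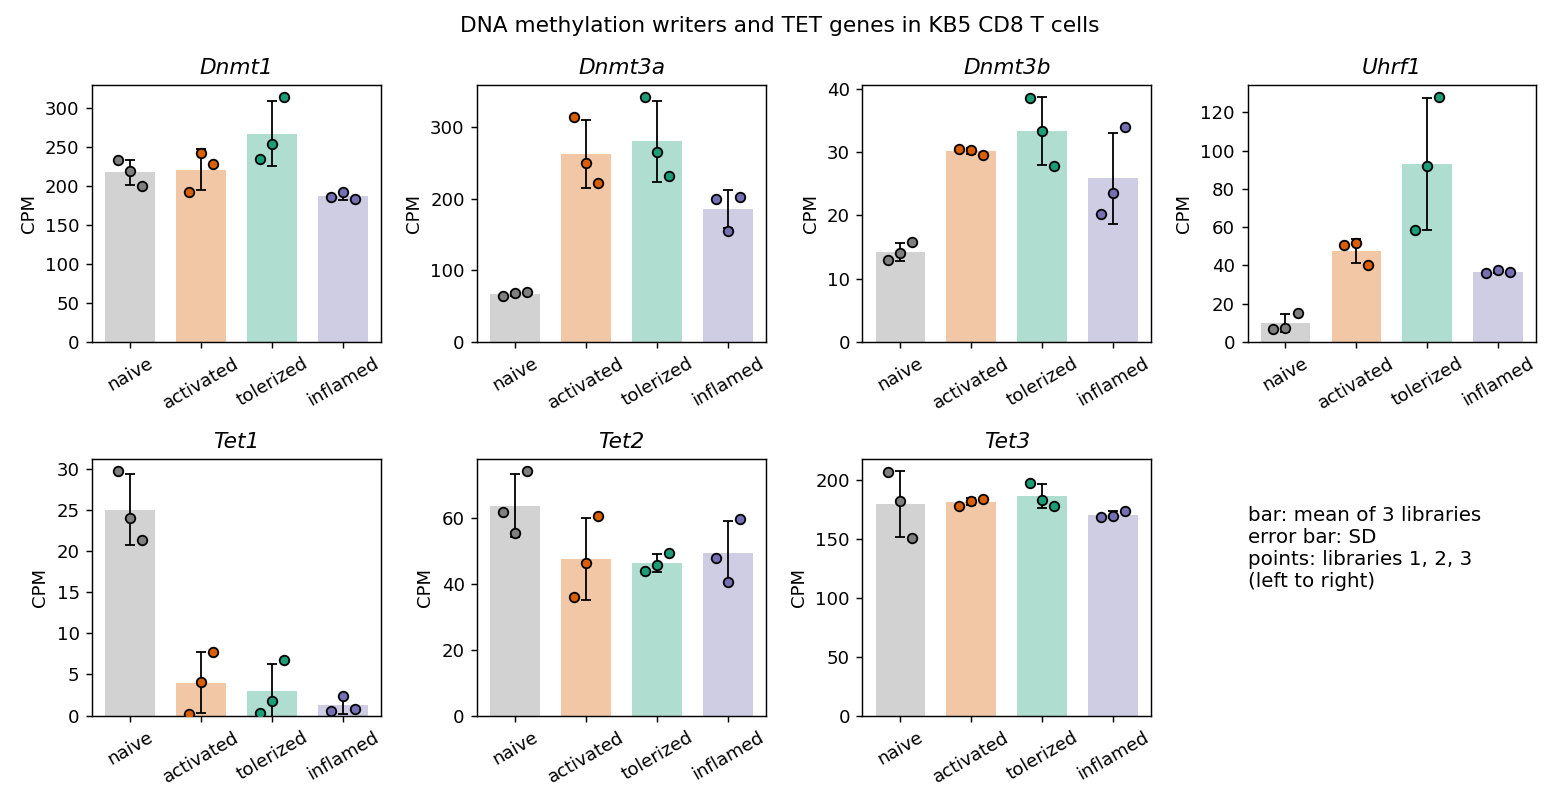
CPM of the 7 genes (linear axes from 0) in the 4 groups, with bars for the mean of 3 libraries, error bars for the SD and points for libraries 1, 2 and 3 from left to right. Dnmt3a, Dnmt3b and Uhrf1 are higher in all antigen-exposed libraries than in naive ones, and Tet1 is lower.

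Dnmt3a, the main de novo enzyme of mature T cells (GRCm38.p6 chromosome 12, 3801559 to 3914443), had 63.6, 68.8 and 69.1 CPM in naive libraries. It stood at 315, 250 and 222 CPM in the activated, 342, 266 and 233 CPM in the tolerized and 200, 156 and 203 CPM in the inflamed libraries. Every antigen-exposed library was thus far above every naive one, and the inflamed libraries lay below all 6 activated and tolerized ones. Mean CPM was 3.90 times the naive mean in activated, 4.17 times in tolerized and 2.77 times in inflamed cells. The log2 difference from naive cells was 1.93 ± 0.16 (adjusted p = 2.6e-06), 2.03 ± 0.16 (adjusted p = 1.64e-06) and 1.45 ± 0.16 (adjusted p = 1.97e-05). The call held in all 25 alternatives run for each of the 3 comparisons. In both activated and tolerized cells the order was library 1 highest and library 3 lowest, the reverse of the order of Il7r in these libraries.

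Dnmt3b, the second de novo enzyme (chromosome 2, 153649411 to 153687730), stood at 12.9, 14.1 and 15.7 CPM in naive libraries. It reached 30.5, 30.3 and 29.6 CPM in activated, 38.7, 33.4 and 27.9 CPM in tolerized and 20.2, 23.5 and 34.0 CPM in inflamed libraries. No antigen-exposed library overlapped the naive range, and the inflamed libraries were the most spread of the 3 groups. Dnmt3b rose by 1.03 ± 0.18 (adjusted p = 0.000482), 1.16 ± 0.18 (adjusted p = 0.000187) and 0.79 ± 0.18 (adjusted p = 0.00229) on the log2 scale in activated, tolerized and inflamed cells. These calls, too, held in all 25 alternatives.

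Dnmt1, the maintenance enzyme (chromosome 9, 20907206 to 20959888), was abundant before treatment, at 232, 219 and 200 CPM. It stood at 192, 242 and 229 CPM in activated, 234, 254 and 314 CPM in tolerized and 186, 192 and 183 CPM in inflamed libraries. Activated and naive libraries overlapped, every tolerized library lay above every naive one (tolerized 1 by a narrow margin), and every inflamed library lay below them. The difference from naive cells was 0.02 ± 0.12 in activated (adjusted p = 0.891), 0.29 ± 0.12 in tolerized (adjusted p = 0.0464) and -0.21 ± 0.12 in inflamed cells (adjusted p = 0.127). The tolerized call was kept in 7 of 25 alternatives, the difference was -0.02 with library size alone, and it was 0.17 without tolerized 3.

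Uhrf1, which recognises CpG methylated on the old strand alone and recruits DNMT1 (chromosome 17, 56303337 to 56323486), had, after Tet1, the widest range of antigen-exposed levels among the 7, as highest over lowest library. It stood at 6.61, 7.32 and 15.2 CPM in naive, 50.7, 51.6 and 40.0 CPM in activated, 58.6, 92.2 and 128 CPM in tolerized and 35.9, 37.7 and 36.6 CPM in inflamed libraries. The 4 groups did not overlap at any point, in the order naive, inflamed, activated and tolerized. How many of all tested genes separate over the 4 groups in this way was not counted. In CPM the tolerized libraries differed more among themselves than those of any other group. Uhrf1 rose by 2.25 ± 0.31 in activated (adjusted p = 8.58e-05), 3.15 ± 0.31 in tolerized (adjusted p = 5.94e-06) and 1.90 ± 0.31 in inflamed cells (adjusted p = 0.000243). Mean CPM was 4.88, 9.56 and 3.78 times the naive mean, and all 25 alternatives kept each call.

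Tet1, the first TET dioxygenase described (chromosome 10, 62804570 to 62887469), was already the lowest of the family in naive cells, at 29.7, 24.0 and 21.3 CPM from 812 to 2307 reads. It stood at 0.252, 4.13 and 7.69 CPM in activated libraries (7, 155 and 410 reads). Tolerized libraries held 0.304, 1.83 and 6.72 CPM (8, 82 and 231 reads), and inflamed libraries held 0.520, 2.40 and 0.795 CPM (17, 123 and 32 reads). Every antigen-exposed library lay far below the lowest naive library, and libraries of 1 group differed from one another by over an order of magnitude in activated and tolerized cells. As percent of the naive mean, the activated libraries held 1.01%, 16.5% and 30.7%, the tolerized 1.22%, 7.32% and 26.9% and the inflamed 2.08%, 9.57% and 3.18%. Tet1 fell by 2.75 ± 0.73 in activated (adjusted p = 0.00611), 3.08 ± 0.73 in tolerized (adjusted p = 0.00301) and 3.62 ± 0.73 in inflamed cells (adjusted p = 0.0011) on the log2 scale.

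Within each exposed group, libraries with more Tet1 also held more RNA of Il7r. Il7r, which was chosen after its values were seen, gave 5.76, 34.6 and 87.9 CPM in activated, 4.48, 5.07 and 21.8 CPM in tolerized and 5.81, 44.4 and 8.17 CPM in inflamed libraries, against 246 to 287 CPM in naive ones. The order of the 3 libraries was the same for Tet1 and Il7r in each exposed group. Without the 3 libraries richest in Il7r, activated 3, tolerized 3 and inflamed 2, the log2 difference of Tet1 from naive cells was -3.34 in activated, -3.74 in tolerized and -3.96 in inflamed cells. These libraries also held the most Tet1 of their groups. Leaving them out was thus bound to enlarge the fall, and these values are no check on the part of resting cells. Of 25 alternatives, the activated call was lost in 1, which left out naive 2 and 3, the naive libraries richest in macrophage markers (-2.99, adjusted p = 0.0559, with a range of 0.000697 to 0.0559 over the 25), and the tolerized and inflamed calls were kept in all 25. The part of resting cells in the remaining Tet1 RNA was not tested. Leaving out activated 1 gave -1.92 in activated and leaving out tolerized 1 gave -2.46 in tolerized cells. The size also depended on the pseudocount: over the 25 alternatives it ran from -3.46 to -1.82 in activated, -3.83 to -1.99 in tolerized and -4.50 to -2.27 in inflamed cells, weakest with a pseudocount of 5 in each.

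**Figure D2:**
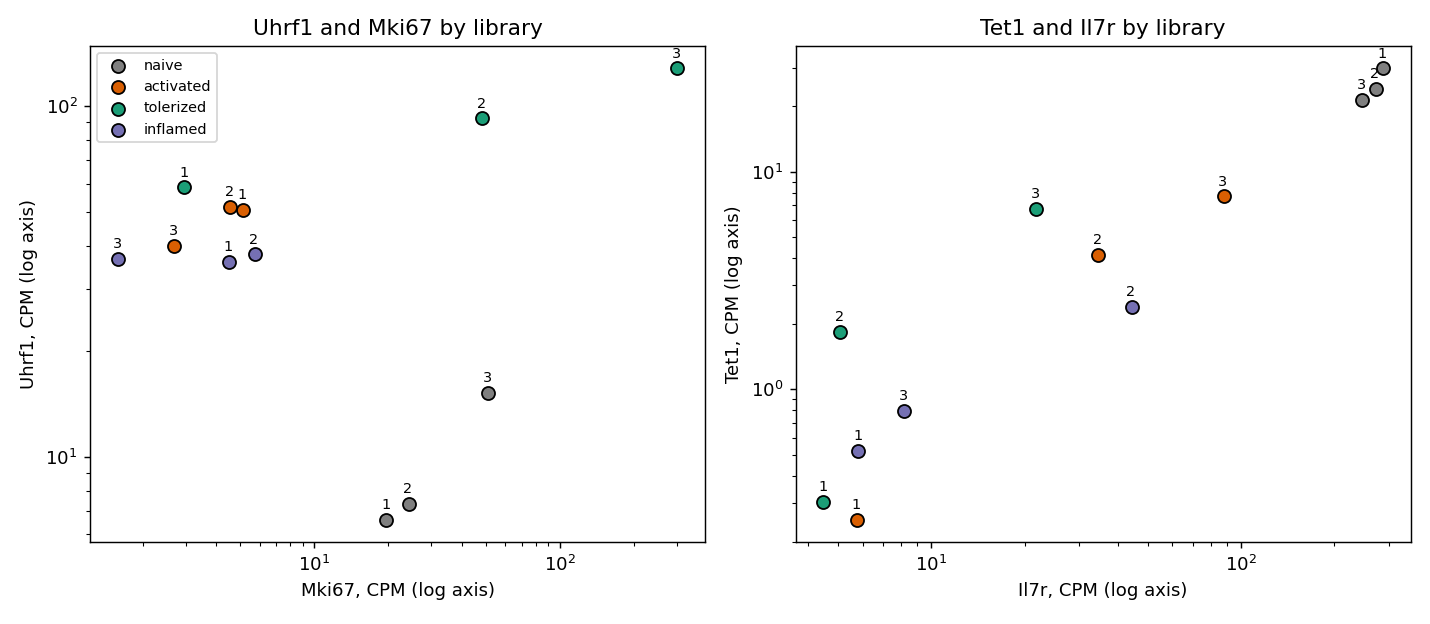
Each point is 1 library, numbered, coloured by group, on log axes in CPM. On the left Uhrf1 is set against Mki67, where tolerized 2 and 3 stand apart at 48.5 and 301 CPM of Mki67. On the right Tet1 is set against Il7r, where activated 3 lies nearest to the naive libraries.

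Tet2 (chromosome 3, 133463677 to 133545136) stood at 61.7, 55.2 and 74.2 CPM in naive, 35.9, 46.3 and 60.4 CPM in activated, 44.0, 45.6 and 49.2 CPM in tolerized and 47.9, 40.7 and 59.8 CPM in inflamed libraries. The tolerized libraries lay below the naive range, while activated 3 and inflamed 3 lay inside it. No difference from naive cells passed: -0.44 ± 0.19 in activated (adjusted p = 0.0607), -0.44 ± 0.19 in tolerized (adjusted p = 0.055) and -0.37 ± 0.19 in inflamed cells (adjusted p = 0.105). The sign was negative in every alternative, and the difference passed in 6, 10 and 4 of 25, among them library size alone (-0.71, -0.75 and -0.69) and the fit with the replicate number as a block.

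Tet3 (chromosome 6, 83362373 to 83457208), the most abundant TET gene here, stood at 207, 183 and 151 CPM in naive, 179, 183 and 185 CPM in activated, 198, 183 and 179 CPM in tolerized and 168, 170 and 174 CPM in inflamed libraries. All 9 antigen-exposed libraries lay inside the naive range. The difference from naive cells was 0.03 ± 0.10 in activated (95% interval -0.20 to 0.25), 0.06 ± 0.10 in tolerized (interval -0.16 to 0.28) and -0.06 ± 0.10 in inflamed cells (interval -0.29 to 0.16). These values follow the scaling: library size alone gave -0.25, -0.25 and -0.39, with all 3 past the threshold, and shifted the median of all genes by -0.22, -0.24 and -0.27 in the same comparisons.

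**Figure D3:**
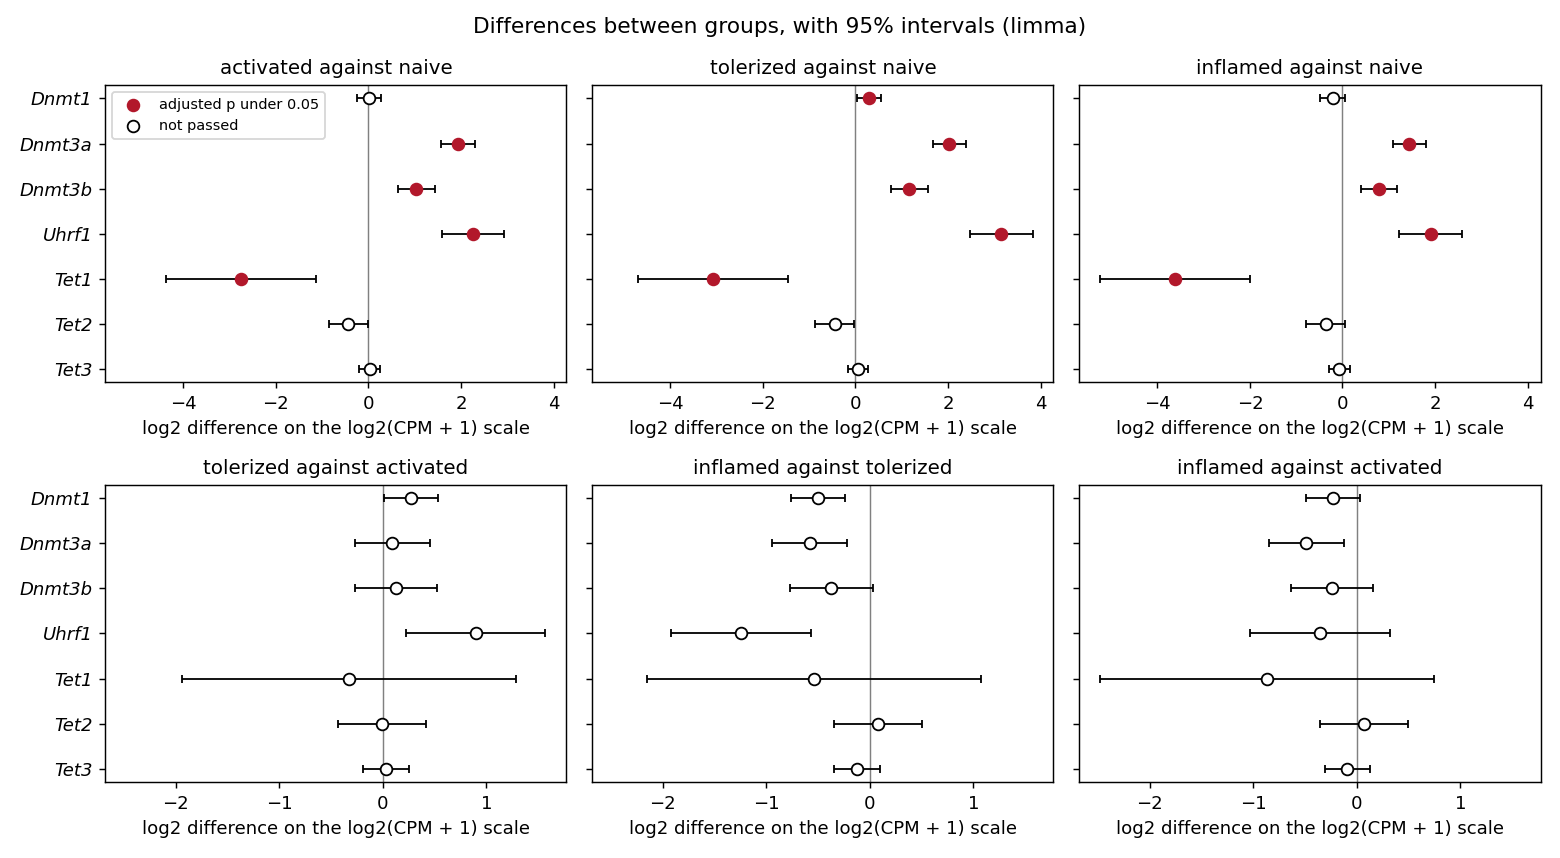
Log2 difference (log2(CPM + 1) scale) of each gene in the 6 comparisons, with 95% intervals from limma and filled points for an adjusted p under 0.05. Filled points appear in the 3 comparisons with naive cells, and the intervals of Tet1 are the widest.

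Levels of different genes were compared per kb of exon, as the table gives the exon length of each gene. In naive cells Dnmt1 was highest at 36.9 ± 2.8 CPM per kb (SD, n = 3), followed by Tet3 at 16.5 ± 2.6, Tet2 at 6.94 ± 1.05, Dnmt3a at 6.90 ± 0.32, Dnmt3b at 3.30 ± 0.33, Uhrf1 at 2.72 ± 1.34 and Tet1 at 1.78 ± 0.31 CPM per kb. Neighbours in this order overlapped in 3 cases: Tet2 with Dnmt3a, Dnmt3b with Uhrf1, and Uhrf1 with Tet1. In activated cells the order was Dnmt1 (37.5 ± 4.4 CPM per kb), Dnmt3a (26.9 ± 4.9), Tet3 (16.7 ± 0.3), Uhrf1 (13.3 ± 1.8), Dnmt3b (6.98 ± 0.11), Tet2 (5.17 ± 1.34) and Tet1 (0.286 ± 0.264), and no neighbours overlapped. Inflamed cells had the same order with lower leading levels, at 31.8 ± 0.8 for Dnmt1, 19.1 ± 2.7 for Dnmt3a, 15.7 ± 0.3 for Tet3, 10.3 ± 0.3 for Uhrf1, 6.00 ± 1.67 for Dnmt3b, 5.38 ± 1.05 for Tet2 and 0.0878 ± 0.0719 CPM per kb for Tet1, and there Dnmt3b and Tet2 overlapped and the lowest Dnmt3a library met the highest Tet3 library. In tolerized cells Uhrf1 had moved above Tet3 in mean level: the order was Dnmt1 (45.4 ± 7.1 CPM per kb), Dnmt3a (28.8 ± 5.8), Uhrf1 (26.0 ± 9.7), Tet3 (17.1 ± 0.9), Dnmt3b (7.72 ± 1.25), Tet2 (5.04 ± 0.29) and Tet1 (0.210 ± 0.238), and Uhrf1 overlapped both Dnmt3a and Tet3. Dnmt3a was thus below Tet3 in naive cells and above it in mean level in all 3 exposed groups.

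The shares of Dnmt1 and Dnmt3a in the methyltransferase family did not overlap between naive and exposed libraries, while that of Dnmt3b did (6.10% to 8.15% in naive and 7.71% to 13.2% in exposed libraries). Dnmt1 took 76.0% to 80.6% of the summed CPM per kb of the 3 methyltransferase genes in naive libraries and 45.3% to 63.8% in the 9 others. Dnmt3a took 13.3% to 15.9% in naive and 28.5% to 44.9% in exposed libraries, with means of 37.7% in activated, 35.1% in tolerized and 33.5% in inflamed cells. The sum itself was 47.1 ± 2.2 CPM per kb (SD, n = 3) in naive, 71.5 ± 2.7 in activated, 81.9 ± 3.2 in tolerized and 56.9 ± 2.9 in inflamed cells, and these 4 ranges did not overlap. The ratio of Uhrf1 to Dnmt1 per kb was 0.0468, 0.0550 and 0.126 in naive, 0.436, 0.351 and 0.288 in activated, 0.413, 0.598 and 0.672 in tolerized and 0.318, 0.324 and 0.330 in inflamed libraries. The RNA level of Uhrf1 thus stood far closer to that of Dnmt1 after antigen, with activated libraries overlapping both tolerized and inflamed ones. For shares and ratios no test was run.

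The TET family kept its leading gene, and its total differed less. The summed CPM per kb was 25.2 ± 2.3 in naive, 22.1 ± 1.9 in activated, 22.3 ± 0.5 in tolerized and 21.1 ± 1.3 in inflamed cells (SD, n = 3), and the naive libraries lay above all tolerized and inflamed ones and overlapped the activated ones. Tet3 made up 59.1% to 68.4% of it in naive and 70.4% to 80.7% in exposed libraries, and Tet1 went from 6.46% to 7.60% in naive to 0.0882% to 2.27% in exposed libraries. Tet2 held 24.2% to 34.5% in naive and 19.3% to 28.9% in exposed libraries, which overlap.

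**Figure D4:**
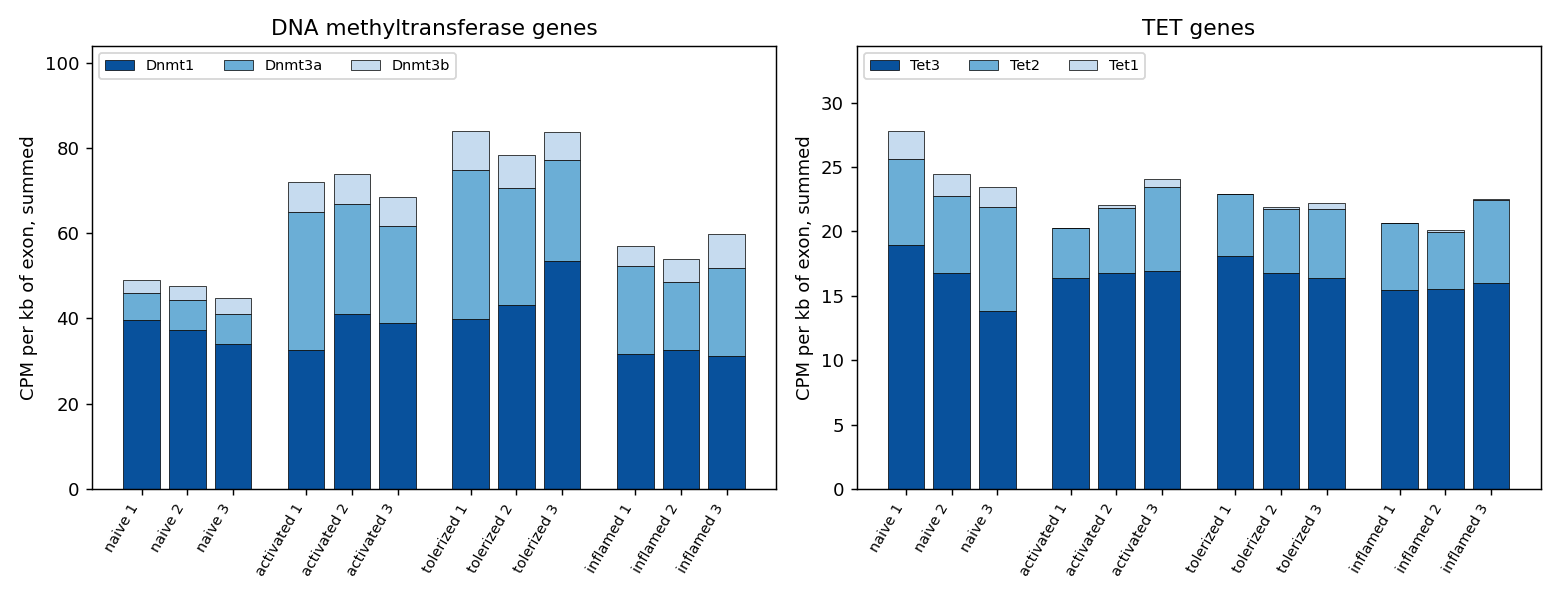
Stacked bars of CPM per kb of exon for each library, with the 3 methyltransferase genes on the left and the 3 TET genes on the right (axes from 0). The methyltransferase bars are taller in all exposed libraries, and the Tet1 part is hardly visible outside the naive libraries. Dnmt1 is the largest part of each group mean, and Dnmt3a has the largest increase over the naive mean.

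Blocking costimulation beside antigen gave no called difference in the 7 genes. Between tolerized and activated cells 0 of 7 genes passed, as did 0.0% of all tested genes, and limma-voom called 0 of 7 and 0.0% as well. An unadjusted p below 0.05 was found for 2 of 7, Dnmt1 and Uhrf1, and for 4.25% of all genes. Uhrf1 was the 1 gene of 7 whose libraries did not overlap, against 6.66% of all genes, with a difference of 0.90 ± 0.31 (adjusted p = 1) and tolerized libraries at 58.6 to 128 CPM against 40.0 to 51.6 CPM. That value was 0.63 without tolerized 3, 0.51 without the Il7r-rich libraries and 1.17 without tolerized 1. Dnmt1 differed by 0.27 ± 0.12 (adjusted p = 1). Between libraries of equal number, Dnmt1, Dnmt3a and Uhrf1 were higher in the tolerized library in all 3 pairs. How many of all tested genes have such an order was not counted, and no label says that equal numbers mark pairs. With the replicate number as a block over all 12 libraries, the limma adjusted p was 0.822 for Uhrf1 and 1 for each of the other 6 genes, and with the block in these 2 groups alone 0 of 7 were called as well. For Dnmt3a the difference was 0.09 ± 0.16 (95% interval -0.27 to 0.46) and for Dnmt3b 0.13 ± 0.18 (interval -0.27 to 0.52). For Tet1 it was -0.32 ± 0.73 (interval -1.94 to 1.29), so a difference of more than 2-fold in either direction lies within the interval.

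Mean levels of the writers were lower in inflamed cells, which also had LPS, than in tolerized cells, without a call in the main fit. Between inflamed and tolerized cells 0 of 7 passed, against 2.78% of all genes, while limma-voom called 1 of 7 (Uhrf1, adjusted p = 0.0314) against 2.36%. An unadjusted p below 0.05 was found for 3 of 7 (Uhrf1, Dnmt1 and Dnmt3a) and for 14.7% of all genes, and libraries did not overlap for 4 of 7 (these and Tet3) against 18.3%. Uhrf1 differed by -1.25 ± 0.31 (adjusted p = 0.0615), Dnmt1 by -0.50 ± 0.12 (adjusted p = 0.0523), Dnmt3a by -0.58 ± 0.16 (adjusted p = 0.1), Dnmt3b by -0.37 ± 0.18 and Tet3 by -0.12 ± 0.10. Without tolerized 3, the tolerized library with the most Uhrf1, the Uhrf1 value was -0.98, and without tolerized 1 it was -1.54 and passed (adjusted p = 0.0181). Over its 26 alternatives the adjusted p ran from 0.0181 to 0.33, with 6 below the threshold. For Tet1 the difference was -0.54 ± 0.73 and for Tet2 0.08 ± 0.19.

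Inflamed and activated cells, which differ by both anti-CD154 and LPS, had 0 of 7 genes called, against 1.92% of all genes by limma-trend and 1.82% by limma-voom, which also called 0 of 7. With the replicate number as a block in these 2 groups alone, 0 of 7 were called and 68 genes in place of 240. Dnmt3a alone had an unadjusted p under 0.05 (1 of 7 against 10.0%), at -0.49 ± 0.16 (adjusted p = 0.264). Libraries did not overlap for 3 of 7, Dnmt3a, Uhrf1 and Tet3, against 13.2% of all genes, with differences of -0.35 ± 0.31 for Uhrf1 and -0.09 ± 0.10 for Tet3. These 3 genes share the same 6 libraries.

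Genes that work with these enzymes were counted in lists. Of 16 tested partners of the methyltransferases, 10 rose and 1 fell in activated against naive cells, with a median log2 difference of 0.67. Over all tested genes the median was -0.04 here, and -0.01 for tolerized as well as for inflamed cells, and the lists below are to be read against these values and the shares of called genes above. Cdca7, which brings the HELLS remodeler to chromatin, rose by 4.42 ± 0.16, Hells itself by 2.73 ± 0.13 and Pcna, the replication clamp that binds DNMT1, by 1.82 ± 0.12. In tolerized against naive cells 11 rose and 1 fell, and in inflamed cells 10 rose and 2 fell. The clamp gene stood at 117, 116 and 148 CPM in naive, 514, 457 and 384 CPM in activated, 482, 529 and 510 CPM in tolerized and 421, 418 and 480 CPM in inflamed libraries. All exposed libraries were thus above all naive ones for Pcna, as for Uhrf1, while Dnmt1 showed no such separation. Of 18 partner genes with a promoter window, Hells, Cdca7 and Suv39h1, a histone H3 lysine methyltransferase gene, held the motif given above. In the lists described next it was found for 0 of 7 readers, 0 of 8 TET partners, 1 of 12 base excision genes (Nthl1) and 0 of 13 genes of methyl donor supply.

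Among genes listed as readers of methylated CpG more fell than rose. Of 10 tested, 1 rose and 5 fell in activated cells (median -0.39), 1 rose and 4 fell in tolerized cells and 1 rose and 5 fell in inflamed cells. The 1 that rose was Mbd3, a subunit of the NuRD complex that does not itself bind methylated CpG well, at 1.22 ± 0.12 in activated cells. Mbd6 fell by 0.91 ± 0.18 in the same comparison. Mbd6, and Mbd5, which fell in inflamed cells, were listed with the Mbd family, and their binding of methylated CpG is not implied here. In tolerized cells Zbtb4, a zinc finger reader, fell by 2.81 ± 0.48, and in inflamed cells Zbtb38, a related reader, fell by 1.99 ± 0.34. With library size alone and with upper-quartile scaling, 8 of the 10 were called in tolerized cells.

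Partners of the TET enzymes, among them the genes that make or use up their cosubstrate 2-oxoglutarate, were divided. Of 11 tested, 3 rose and 5 fell in activated cells, 3 rose and 5 fell in tolerized cells and 3 rose and 6 fell in inflamed cells. Idh3a, a subunit of the mitochondrial isocitrate dehydrogenase that uses NAD, rose by 1.95 ± 0.09 in activated cells. Hcfc1, a chromatin cofactor processed by the OGT transferase, rose by 0.87 ± 0.10. Idh2, the NADP-dependent mitochondrial enzyme, fell by 1.07 ± 0.11 in tolerized cells, and Idh1, its cytosolic counterpart, fell by 2.55 ± 0.29 in inflamed cells. This list's median was -0.39 in activated cells.

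Among genes of the steps after oxidation more rose than fell. Of 14 tested genes of base excision repair and its helpers, 9 rose and 3 fell in both activated and tolerized cells, and 8 rose and 3 fell in inflamed cells, with medians of 1.17, 1.21 and 1.14. Tdg, the glycosylase that removes oxidised methylcytosine, rose by 2.47 ± 0.12, 2.61 ± 0.12 and 2.55 ± 0.12 in activated, tolerized and inflamed cells. Apex1, which cuts the DNA backbone at the empty site, rose by 2.90 ± 0.14 in activated cells, and Ung, which removes uracil, by 2.32 ± 0.13. So Tdg rose in the same groups in which Tet1 fell.

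Genes that supply the methyl donor S-adenosylmethionine also rose more often than they fell. Of 15 tested, 10 rose and 2 fell in activated, 10 rose and 3 fell in tolerized and 10 rose and 2 fell in inflamed cells, with medians of 0.88, 0.97 and 1.01. Slc19a1, the reduced folate carrier, rose by 3.50 ± 0.18 in activated cells, Adk, which clears the adenosine left by methyl transfer, by 2.78 ± 0.13, and Ahcy, which splits S-adenosylhomocysteine, by 2.27 ± 0.13. Mthfd1, a folate cycle enzyme, rose by 3.14 ± 0.17 in inflamed cells.

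S phase and division genes were listed because Uhrf1 and Dnmt1 serve replicating DNA. Of 19 tested, 11 rose and 1 fell in activated cells (median 0.73), 15 rose in tolerized cells (median 1.69) and 11 rose and 1 fell in inflamed cells (median 0.62). Mcm2, part of the replicative helicase, stood at 47.1, 45.2 and 48.6 CPM in naive, 306, 287 and 211 CPM in activated, 358, 340 and 300.3 CPM in tolerized and 266, 241 and 244 CPM in inflamed libraries. The helicase gene was thus far above naive levels in all exposed libraries, with the tolerized ones highest in mean. Mcm5, Mcm3 and Mcm6, of the same helicase, rose by 2.24 ± 0.10, 2.06 ± 0.10 and 1.81 ± 0.09 in activated cells. Of 17 genes of the list with a promoter window 6 held the motif, against 2.16% of 27025 genes, a share not matched for CpG content.

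Between tolerized and activated cells none of the 6 lists had a called gene, but without tolerized 1 there were 5 calls in the S phase list and 1 among the methylation partners. The S phase list had a median of 0.62 there, against 0.01 for all genes, and 16 of its 19 genes had an unadjusted p under 0.05, with Mcm3 at 0.46 ± 0.10 (adjusted p = 0.957). In inflamed against tolerized cells 7 of the 19 fell and none rose (median -0.79), among them Mcm3 by 0.79 ± 0.10, Mcm7 by 0.72 ± 0.09 and Mcm5 by 0.69 ± 0.10. Of the methylation partners, 2 fell in that comparison, Hells by 0.71 ± 0.13 and Lig1, the ligase that joins the fragments of the lagging strand, by 1.30 ± 0.29, and the other 4 lists had no call. Without tolerized 1 the S phase count was 13 and that of the partners 4, without tolerized 3 they were 4 and 1, without tolerized 2 they were 3 and 0, and without inflamed 1 or inflamed 2 they were 4 and 0. Inflamed against activated cells had no called gene in the 6 lists, the nearest being Mbd2 among the readers (0.50 ± 0.13, adjusted p = 0.0971). There 3 S phase genes were called without activated 3, 1 partner without naive 1 and 1 reader without tolerized 3, and without the Il7r-rich libraries 1 S phase gene and 1 reader were called.

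Mki67, which marks cells through the whole division cycle, did not follow the group order of Uhrf1. It stood at 19.7, 24.3 and 51.2 CPM in naive, 5.11, 4.56 and 2.68 CPM in activated, 2.96, 48.5 and 301 CPM in tolerized and 4.50, 5.73 and 1.59 CPM in inflamed libraries. Activated and inflamed libraries thus had less Mki67 and more Uhrf1 than any naive library. Within the tolerized group both genes were in the order 1, 2, 3, and tolerized 1, with less Mki67 than every naive library, still had 58.6 CPM of Uhrf1. Tolerized 3 was also the antigen-exposed library with the highest summed level of the 6 B cell markers (154 CPM) and of the 5 dendritic cell markers (36.7 CPM, against 1.61 to 9.72 CPM in the other 8), and the part of such cells in its Mki67 and Uhrf1 was not tested.

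**Figure D5:**
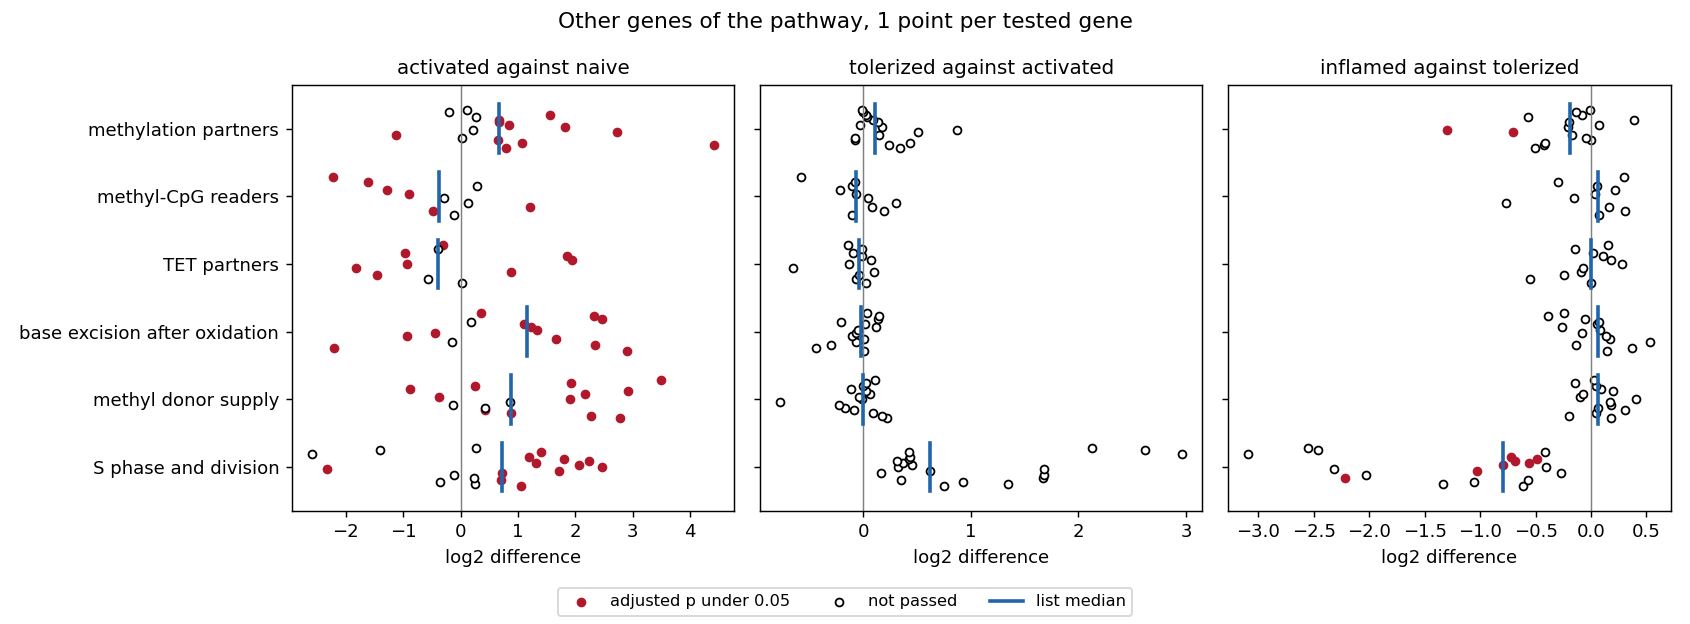
Log2 difference of each tested gene of the 6 lists in 3 comparisons, with 1 point per gene, filled where the adjusted p was under 0.05, and a bar at the list median. The S phase and division list lies to the right in tolerized against activated cells with no filled point, and to the left in inflamed against tolerized cells with 7.

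The genes with the most similar profiles were found by the root mean square difference between log2(CPM + 1) profiles over the 12 libraries, each centred on its own mean, among 8837 genes averaging 5 CPM or more. For Uhrf1 these were Chaf1a, a subunit of the chromatin assembly factor that works at replication forks (difference 0.155), Fignl1, an ATPase of recombination repair (0.246), and Cdc45, which activates the replicative helicase (0.288). Chaf1a stood at a mean of 3.36 CPM in naive, 18.0 in activated, 37.6 in tolerized and 13.7 in inflamed cells, the same group order as Uhrf1. For Tet1 they were Nlrc3, a NOD-like receptor gene that damps T cell responses (0.160), Hmha1 (0.177) and Kif21b, a kinesin (0.184). Nlrc3 went from a mean of 109 CPM in naive cells to 22.0, 19.9 and 10.2 CPM in activated, tolerized and inflamed cells.

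For Dnmt3a the nearest were Polr3g, a subunit of RNA polymerase III (0.130), Ccdc50 (0.145) and Nfkb2, of the NF-kappaB family (0.151), the last with 69.1, 268, 255 and 220 CPM in naive, activated, tolerized and inflamed cells. Near Dnmt3b were Suz12, a core subunit of Polycomb repressive complex 2 (0.116), and Zmpste24, a metalloprotease (0.119). Dnmt1 had Dgkz, a diacylglycerol kinase (0.094), Rpa1, of the single-strand DNA binding complex (0.094), and Dcaf12 (0.095) as neighbours. Tet2 was nearest to Fnbp4 (0.120), Lcor, a nuclear receptor corepressor (0.132), and Ash1l, a histone methyltransferase (0.139), and Tet3 to Fastk, Kctd10 and Ss18 (0.059 to 0.071). The small distances for Dnmt1 and Tet3 belong to flat profiles, which many genes share. All such distances rest on the same 12 libraries, and so include differences between libraries within a group.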

How the data were processed

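The labels describe messenger RNA libraries sequenced on an Illumina HiSeq instrument. Their extraction text also names fibroblasts from mouse embryos, at odds with every other field. TopHat2, bedtools, DESeq and the builds mm10 and GRCm38 are named, per the submitters' processing notes, without versions or roles. The authors deposited 1 read count per gene and library beside exon lengths, and since the values carry commas the unit is recorded as other. Of values from 1 to 20, 55.6% to 64.4% were even, so read pairs may have been counted as 2. The share was 56.9% in activated 1, 55.6% in tolerized 1 and 57.6% in inflamed 1, and at least 61.4% in every other library. Those libraries of low share also held the least Tet1 and the least Il7r of their groups. The part of library processing in this was not tested. Removal of duplicate reads is not given in the sources used here.

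Counts were scaled to CPM by TMM (30% of M and 5% of A trimmed). Genes with at least 0.258 CPM (10 reads at the median library) in 3 libraries and 15 reads in all were tested, 12499 of 16353, and 38 genes were at 0 throughout. Limma-trend (limma 3.58.1 in R 4.3.3) was run 2-sided on log2(CPM + 1) with 4 group means over 12 libraries, with Benjamini-Hochberg adjustment over all tested genes. A negative binomial test was planned only in case the values were accepted as counts, and was not used. The scripts were tested on simulated data. No label explains the replicate numbers, so pairing was checked by correlating deviations from the group means. Pairs of equal number gave 0.602, 0.19 and 0.576 between tolerized and activated cells, and 0.636, 0.225 and 0.146 between inflamed and activated cells. In the other 4 comparisons not all 3 were above 0.1. Some pairs of unequal number were higher than an equal pair. Inflamed 2 with activated 3 gave 0.562, inflamed 3 with activated 2 gave 0.25, and tolerized 3 with activated 2 gave 0.214. Of the other unequal pairs of tolerized or inflamed with activated libraries, tolerized 2 with activated 1 gave 0.0658. The rest were negative, from -0.573 to -0.162. Equal numbers are thus not shown to mark pairs.

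The 7 genes and all lists were chosen with earlier results of these data known. Named were all 7 genes, the 3 listed genes with the smallest adjusted p per list and comparison described, Mki67, Mcm2 and Pcna, and the 3 nearest profiles per gene (no predicted genes). Il7r and, for their motif, Suv39h1 and Nthl1 were named after values were seen. Some genes that this rule picks are not reported here. Exons of the 7 genes overlap no exon of another gene in the GENCODE annotation of GRCm38. Promoter windows came from RefSeq (GRCm38.p6), in which all 7 genes matched by symbol, and the 50 bases after each start were not searched. Alternatives were other scalings (median-of-ratios, library size alone, upper-quartile), limma-voom, pseudocounts of 0.1 and 5, no filter, a filter at 5 CPM, the 2 compared groups alone, a replicate block and each library left out. Alternatives added after seeing the data left out the libraries richest in Il7r, or naive 2 and 3 (which leaves 1 naive library, assumed to vary like the other groups), or all naive libraries.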

Additional observations from a re-analysis of the deposited data

How the results depend on the processing

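For the 13 called differences of the 7 genes, 306 of 325 alternative values kept direction and call. The 19 others were 18 of Dnmt1 in tolerized against naive cells, of which 1 changed sign (-0.021 with library size alone), and 1 of Tet1 in activated against naive cells. For the 29 differences without a call, 677 of 746 values stayed so with the same sign, 37 passed the threshold with the same sign and 32 changed sign. Of those that changed sign, Tet3 with library size alone also passed in activated and in tolerized against naive cells (-0.249 in each). Sign changes of Dnmt1 in activated against naive cells were -0.026 with median-of-ratios, -0.256 with library size alone, -0.182 with upper-quartile scaling and -0.082 without naive 2 and 3, and leaving out single libraries gave -0.05 to 0.148. For Tet3 in that comparison the same settings gave -0.019, -0.249, -0.175 and -0.184, and single libraries left out -0.094 to 0.131. Tet3 in tolerized against naive cells gave -0.249 with library size alone, -0.165 with upper-quartile scaling, -0.15 without naive 2 and 3, and -0.06 to 0.165 with single libraries left out, and in inflamed against naive cells the last range was -0.185 to 0.04. In tolerized against activated cells leaving out single libraries gave -0.075 to 0.217 for Dnmt3a, -1.148 to 0.282 for Tet1, -0.213 to 0.177 for Tet2 and -0.023 to 0.064 for Tet3. Tet2 there was 0.123 without the Il7r-rich libraries and Tet3 -0.001 with library size alone. In inflamed against tolerized cells the ranges were -1.159 to 0.129 for Tet1 and -0.06 to 0.208 for Tet2, and in inflamed against activated cells -0.132 to 0.256 for Tet2. In inflamed against naive cells 7 of the 7 genes were called with library size alone and with upper-quartile scaling, which shift all genes. In inflamed against tolerized cells 1 of 7 was called in 7 settings, though not the same gene: Dnmt1 with median-of-ratios and upper-quartile scaling, Dnmt3a with library size alone, and Uhrf1 with limma-voom, a pseudocount of 5, without naive 2 and 3 and in the 9 exposed libraries alone. With single libraries left out it was 0 to 2 (Dnmt1 and Uhrf1 without tolerized 1). Over all genes, 5779 were called in activated against naive cells without naive 2 and 3, against 8831, and 0 to 60 in tolerized against activated cells with single libraries left out (60 without tolerized 1). In inflamed against tolerized cells, against 348, the counts were 158 in the 2 groups alone, 203 without the Il7r-rich libraries, 195 without naive 2 and 3, 195 in the 9 exposed libraries and 157 to 540 with single libraries left out (157 without tolerized 2, 540 without tolerized 1). In inflamed against activated cells, against 240, they were 101, 147, 145, 144 and 107 to 328 (107 without activated 2, 328 without inflamed 3). With a replicate block in the 2 groups alone the counts were 0 and 68 in these 2 comparisons. With a replicate block over all 12 libraries 5 of 7 genes were called in each comparison with naive cells, Tet2 being added in activated and inflamed cells and taking the place of Dnmt1 in tolerized cells, and 0 of 7 in the other 3 comparisons. Where counts of calls moved, the cause was not tested. Depth limits Tet1, with 7 to 410 reads in exposed libraries, more than the other 6 genes.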
